A study of Mus musculus with 14 samples.

Results

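The 36 genes described here are interferon-stimulated genes and genes of class I antigen processing, taken by name from a fixed list and looked up in the expression tables of a mouse lung series on Nkx2-1, a homeobox transcription factor gene of lung epithelium. All 36 were found among the 23793 loci of the table for alveolar type 1 (AT1) cells and whole lung. In the table for alveolar type 2 (AT2) cells, with 32609 loci, 29 were found; Ifit1, Ifit2, Ifit3, Stat2, Gbp3, Iigp1 and Irgm1 were not analysed there. The genes were picked by name and not by a cut-off on measured values, but earlier results of these data were known when they were chosen. RNA-seq had been run on 14 libraries. Mutant and control AT1 cells, labelled Nkx2-1;Aqp5, came from a flow sort at postnatal day 5 (P5) and gave 3 libraries each, lettered A to C. Mutant and control AT2 cells, labelled Nkx2-1;Sftpc, also gave 3 each, taken at P8, P8 and P9 in both groups, and the way they were isolated is not given in the sources used here. Mutant and control whole lung, labelled Nkx2-1;Aqp5 and taken at P14, gave 1 library each. The labels name the cross by gene only, so which allele and driver were used, and the exact genotype of the controls, is not given in the sources used here. The labels do not say whether libraries of a group came from separate animals. Ages within the AT2 groups, and Y-linked transcripts given below, differed between some libraries of a group, so those came from different animals; for the others, such as the AT1 controls, the spread may be technical.

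Interferons are secreted proteins that cells release on sensing viral nucleic acid or, for interferon gamma, that lymphocytes release on activation. Type I and type III interferons act through JAK kinases on a complex with STAT2 and IRF9 that binds the interferon-stimulated response element (ISRE). Interferon gamma acts mainly at gamma-activated sites (GAS) and through the induced factor IRF1. The genes they switch on block viral replication, feed back on the signal, and raise the cutting and loading of peptides onto MHC class I molecules, which pair with beta-2-microglobulin at the cell surface.

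Promoter windows from RefSeq (build GRCm38.p6), running from 250 bases before to 50 after a gene's start, were matched for 28 of the 36 genes. The ISRE core, spelled GAAANNGAA and searched on both strands, stood in 17 of those 28, against 9.76% of the 27025 genes with a window. The GAS motif, spelled TTCNNNGAA, stood in 8 of 28, against 9.55% of genes; matches of the 2 motifs overlapped in 1 window of the 28 genes. The 17 were B2m, Bst2, Cxcl10, Ddx58, Gbp2, Gbp3, Gbp7, Ifi44, Ifih1, Ifit1, Ifit3, Igtp, Irgm1, Isg15, Oas1a, Rsad2 and Stat2. A match describes letters in the window and not a used site. The 170 bases before the start are printed for the 4 genes with the largest changes past the test below that held an ISRE core, so that the sequence can be read beside its values. Capitals mark the core on either strand, and all 4 genes lie on the plus strand. Ifit3 (chr19:34583359-34583528) held 3 matches, beginning 155, 121 and 102 bases before the start. Gbp2 (chr3:142620493-142620662) held 1 at 58 bases, its neighbour Gbp7 (chr3:142530166-142530335) 1 at 52 bases, and B2m (chr2:122147517-122147686) 1 at 139 bases.
Ifit3: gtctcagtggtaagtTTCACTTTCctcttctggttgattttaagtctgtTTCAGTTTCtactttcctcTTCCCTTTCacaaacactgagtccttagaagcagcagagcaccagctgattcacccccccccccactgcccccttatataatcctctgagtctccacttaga
Gbp2: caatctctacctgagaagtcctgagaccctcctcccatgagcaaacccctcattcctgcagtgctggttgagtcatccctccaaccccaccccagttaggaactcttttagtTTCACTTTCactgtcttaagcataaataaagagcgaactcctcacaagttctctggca
Gbp7: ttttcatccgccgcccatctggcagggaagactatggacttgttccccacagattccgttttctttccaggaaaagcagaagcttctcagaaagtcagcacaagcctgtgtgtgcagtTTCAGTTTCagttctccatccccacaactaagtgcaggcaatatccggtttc
B2m: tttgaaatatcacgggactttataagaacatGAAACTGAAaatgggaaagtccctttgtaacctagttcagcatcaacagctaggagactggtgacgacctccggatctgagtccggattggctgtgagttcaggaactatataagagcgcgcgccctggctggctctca

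Expression is in FPKM, fragments per length of transcript and per mapped fragments of the library, which scales for length and so lets levels of different genes be set side by side. Summed FPKM was 478979 to 614523 in mutant and 458291 to 530514 in control AT1 libraries, 536862 to 602980 in mutant and 633531 to 983397 in control AT2 libraries, and 625431 in mutant and 715760 in control lung. Nkx2-1 itself averaged 48.9 ± 23.4 FPKM in mutant and 261 ± 20.7 in control AT1 cells, 68.9 ± 8.64 in mutant and 296 ± 53.7 in control AT2 cells (SD, n = 3), and 52.1 in mutant and 101 in control lung. The 10 AT1 marker genes summed to 2102 to 4474 FPKM in mutant and 9695 to 11769 in control AT1 libraries, where AT2 marker genes summed to 2801 to 11374 in mutants and 7911 to 18142 in controls. In AT2 libraries the AT2 marker genes summed to 1991 to 3862 FPKM in mutants and 84805 to 113459 in controls. In bulk samples, fewer cells of a type and less RNA per cell cannot be told apart. No leukocyte or endothelial marker gene with values was at 0 in all AT1 or all AT2 libraries.

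In mutant AT1 cells, Ifit2 and Ifit3 fell and Irgm1 rose, and no other member passed the test. Changes were tested on log2(FPKM + 1) with limma, two-sided, adjusted by Benjamini-Hochberg over all genes at 1 FPKM or more in at least 3 of the 6 libraries; on this scale the change of low genes is understated. Of the 36 genes, 28 passed that filter, 2 fell, 1 rose and 25 did not pass an adjusted p of 0.05. Over all 12612 genes tested, 6.22% fell, 11.6% rose and 17.8% did either, so the members' counts were near or under the background. The median log2 change was -0.15 over the 28 and 0.0007 over all genes, with 21 of the 28 and 49.9% of all genes below 0. Ifit1, Gbp3, Gbp4 and Dhx58 passed the filter with fewer than 3 mutant libraries at 1 FPKM.

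**Figure D1:**
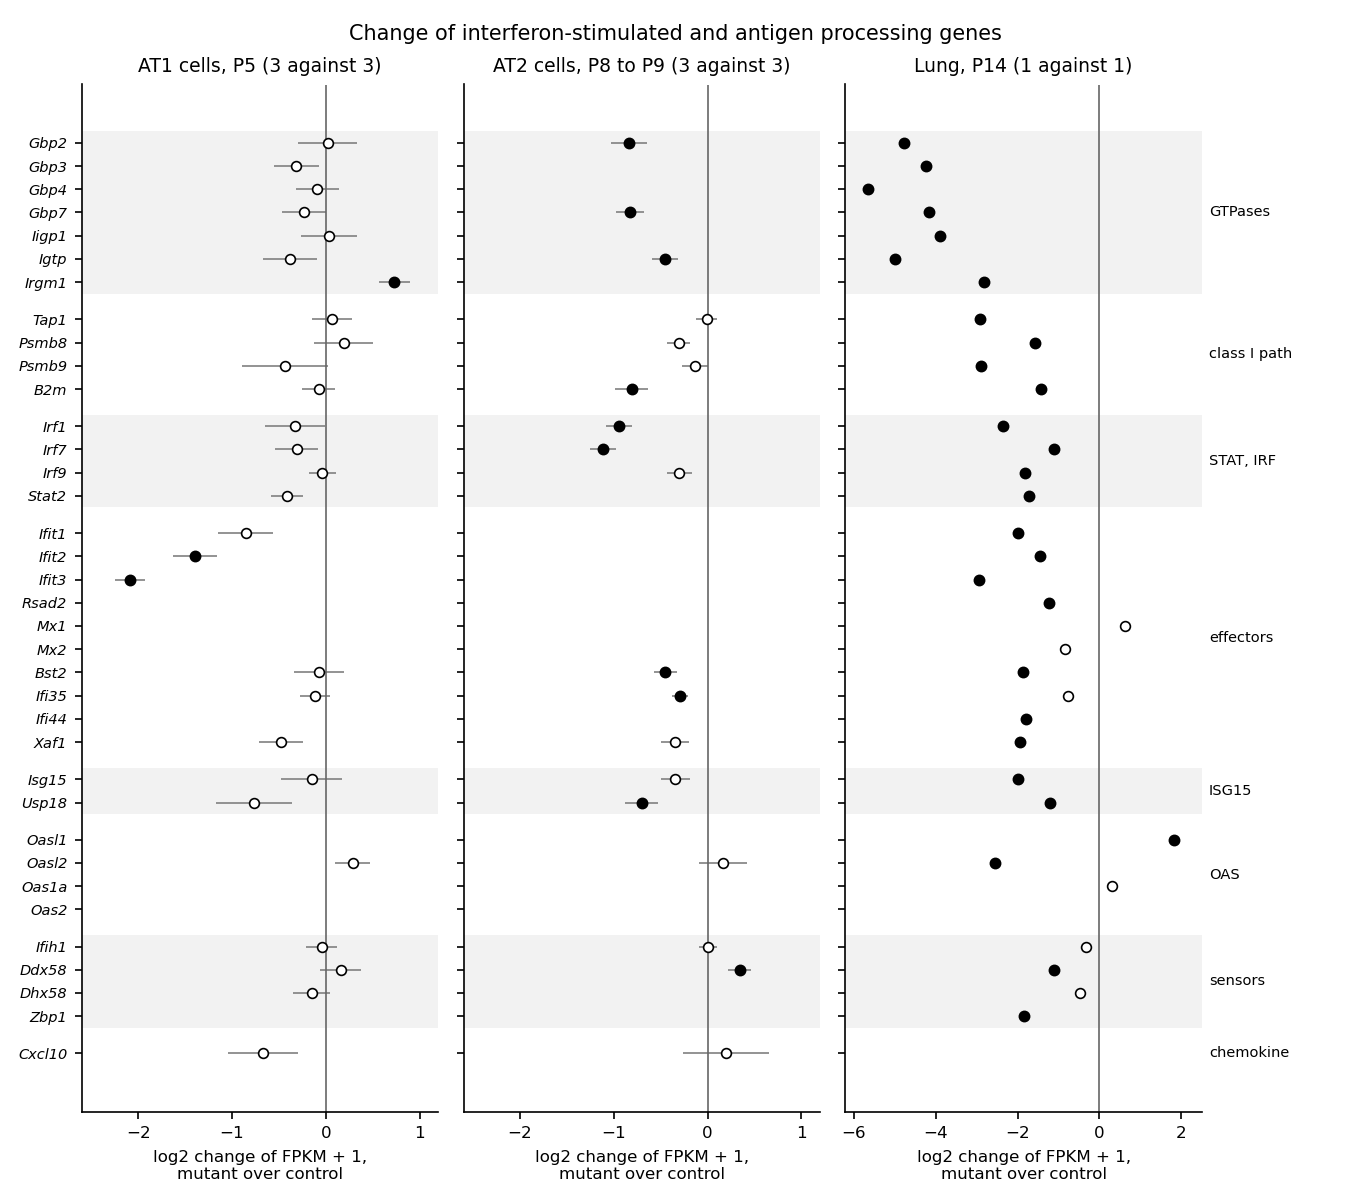
Log2 change of FPKM + 1, mutant over control, of each gene (rows, grouped by role) in AT1 cells, AT2 cells and whole lung. Bars are standard errors from limma, filled points passed an adjusted p of 0.05 (or, in lung with 1 library per group and no test, a 2-fold ratio), open points did not, and a missing point is a gene below the filter or not analysed. In lung 27 filled points lie left of 0, led by the GTPases, and the lung axis spans a wider range.

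Ifit3 and Ifit2 encode tetratricopeptide-repeat proteins that bind viral RNA or the proteins that sense it, and lie side by side on chromosome 19 (34583531 to 34588731 and 34550694 to 34576419, GRCm38, both on the plus strand). Ifit3 measured 1.06, 1.54 and 1.60 FPKM in mutant AT1 cells A to C, against 9.18, 8.86 and 9.30 FPKM in control AT1 cells A to C. Every mutant library lay far below every control, and controls differed little among themselves. The gene fell by 2.08 ± 0.16 on the log2 scale (SE, n = 3 per group; limma adjusted p = 0.000949). Ifit2 measured 5.81, 7.11 and 9.73 FPKM in mutant AT1 cells, against 27.4, 16.6 and 20.5 FPKM in control AT1 cells, again with no overlap. It fell by 1.39 ± 0.23 (limma adjusted p = 0.0104). Both calls held under every alternative tried. Ifit3 has near-identical neighbours such as Ifit3b, and how reads shared by such copies were assigned is not given in the sources used here.

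Ifit1, which binds viral RNA lacking a host cap and lies beyond Ifit3 in the same cluster (34640871 to 34650009), measured 0.686, 0.650 and 1.98 FPKM in mutant AT1 cells, against 1.74, 3.10 and 3.34 FPKM in control AT1 cells. Mutant C overlapped the controls. Its log2 change was -0.85 ± 0.29 (limma adjusted p = 0.0798), and it passed without mutant C (adjusted p = 0.0451) or without control A (adjusted p = 0.0470). Same-lettered AT1 libraries deviated together, and with letters as a replicate block 4 members fell in place of 2, while over all genes the share that fell went up as well, to 10.8%. The block added Ifit1 (adjusted p = 0.0344) and Usp18, which encodes the protease that removes ISG15 from proteins and damps the type I receptor (log2 change -0.77, adjusted p = 0.0168 with the block and 0.212 without it). Usp18 measured 1.65, 4.89 and 4.87 FPKM in mutant AT1 cells, against 3.62, 8.42 and 9.41 FPKM in control AT1 cells.

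Irgm1, an immunity-related GTPase that regulates other GTPases at pathogen vacuoles, measured 9.24, 11.8 and 10.2 FPKM in mutant AT1 cells, against 5.10, 6.66 and 5.85 FPKM in control AT1 cells. Every mutant library was above every control. It rose by 0.73 ± 0.16 on the log2 scale (limma adjusted p = 0.0224). The call was lost without mutant A, B or C (adjusted p = 0.0637, 0.0728 and 0.0606), without control C (0.0577), and where libraries were rescaled to equal summed FPKM with all loci or without mitochondrial and small RNA loci (0.102 and 0.0547). The other 6 GTPases had log2 changes of -0.38 to 0.04 with overlapping groups, and none passed.

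The AT1 transcription factors Irf1, Irf7, Irf9 and Stat2 had log2 changes of -0.41 to -0.04, and none passed. Stat2, a subunit of the complex that binds the ISRE, measured 3.13, 4.60 and 4.21 FPKM in mutant AT1 cells, against 5.12, 5.82 and 5.79 FPKM in control AT1 cells; the groups did not overlap, and the log2 change was -0.41 ± 0.17 (limma adjusted p = 0.132). With Ifit2 and Ifit3 it made 3 members with every mutant library below every control, against 16.5% of all genes tested; Irgm1 was the 1 member with every mutant above every control, against 23.6%. B2m, the invariant chain of MHC class I, measured 247, 208 and 278 FPKM in mutant AT1 cells, against 225, 288 and 258 FPKM in control AT1 cells. Its groups overlapped and the log2 change was -0.08 ± 0.17 (limma adjusted p = 0.775). Tap1, Psmb8 and Psmb9, the peptide transporter subunit and a pair of immunoproteasome subunits, also overlapped, with log2 changes of 0.07, 0.19 and -0.43.

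Among the remaining AT1 members, the chemokine gene Cxcl10 measured 2.54, 7.76 and 7.41 FPKM in mutant AT1 cells, against 13.4, 7.42 and 7.69 FPKM in control AT1 cells, a log2 change of -0.67 with overlap (limma adjusted p = 0.239). Xaf1, Isg15, Ifi35, Bst2, Oasl2 and the sensors Ddx58, Dhx58 and Ifih1 all overlapped, with log2 changes of -0.48 (Xaf1) to 0.29 (Oasl2), and did not pass. Below the filter in AT1 cells were Oasl1, Oas1a, Oas2, Rsad2, Mx1, Mx2, Ifi44 and Zbp1. Oas2, a sensor that makes the second messenger activating RNase L, was below every control in each mutant library, at 0.0473 to 0.0868 FPKM in mutants and 0.224 to 0.318 FPKM in controls, and fell where no filter was used. Oasl1, a related protein without that enzyme activity, went the other way, with 2.36, 0.548 and 0.994 FPKM in mutant AT1 cells, against 0.463, 0.438 and 0.202 FPKM in control AT1 cells. At such levels a value rests on few reads, and depth in reads is unknown.

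In AT2 cells, 9 of the 19 members tested fell and 1 rose, while 22.3% of all 11610 genes tested fell, 32.4% rose and 54.7% did either. Those that fell were the transcription factors Irf7 and Irf1, B2m, the GTPases Gbp2, Gbp7 and Igtp, Usp18, and the antiviral genes Bst2 and Ifi35; the RNA sensor gene Ddx58 rose. Of the 29 members in this table, 10 were below the filter. Usp18, Gbp2 and Gbp7 reached 1 FPKM in no mutant library and Irf7 in 2, so that these 4 passed the filter through their controls, and the share that fell among the 19 is not a share of all members. The median log2 change was -0.34 over the 19 members and 0.09 over all genes, with 15 of the 19 and 43.2% of all genes below 0.

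**Figure D2:**
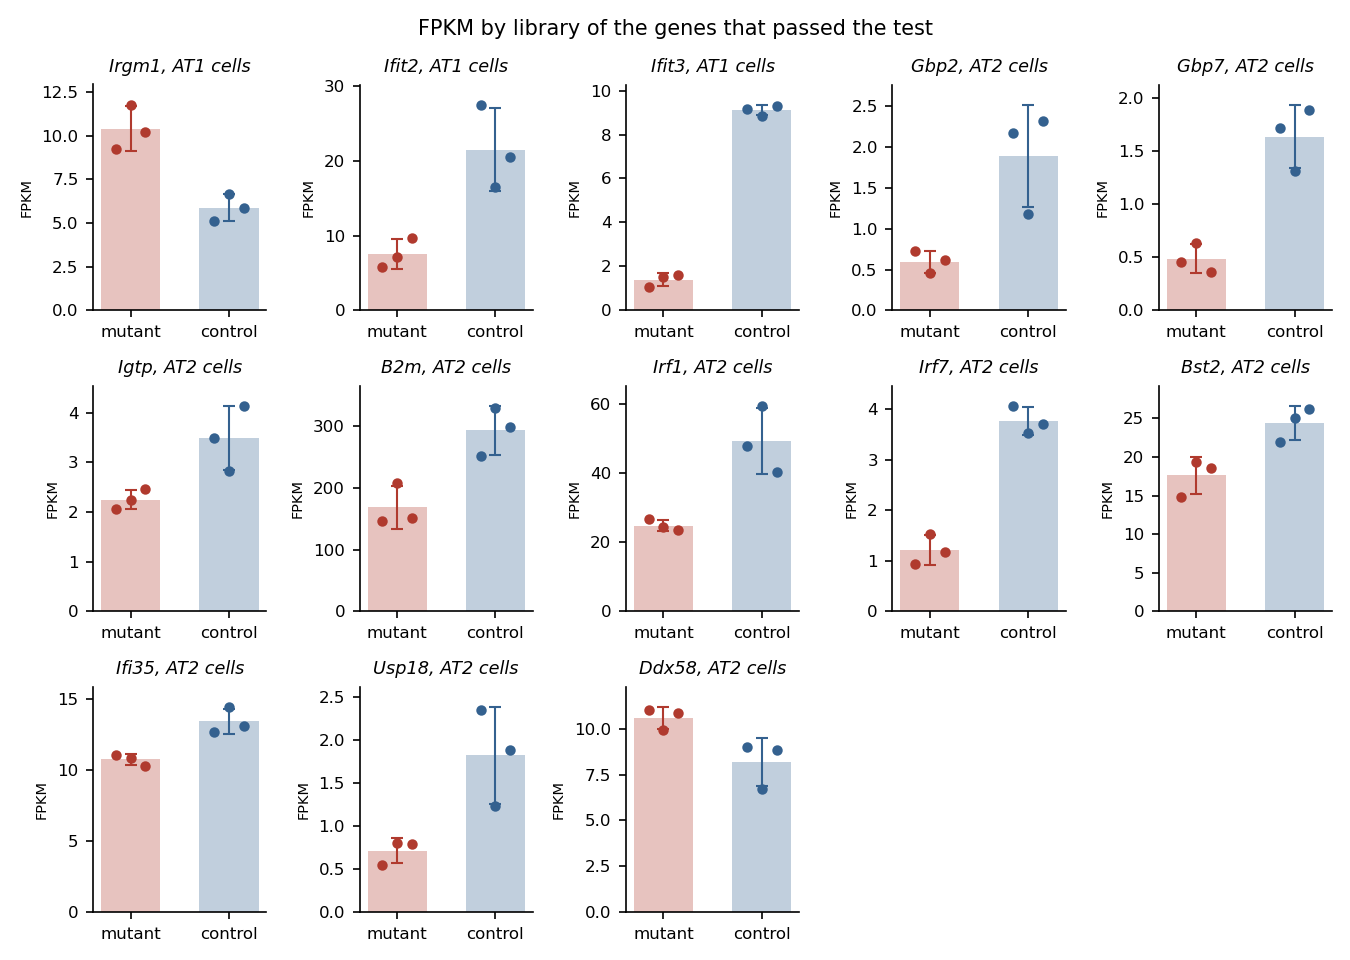
FPKM of each gene that passed the test in AT1 or AT2 cells, with mutant libraries left and control libraries right. Points are libraries A to C, bars the mean and lines the SD (n = 3), and each axis starts at 0; no panel shows an overlap of mutant and control libraries.

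Summed FPKM was lower in mutant than in control AT2 libraries, and the calls depended on the scaling. Where libraries were rescaled to equal summed FPKM, the median over all genes moved to 0.61 and 927 genes fell and 6410 rose, against 2589 and 3767 as deposited. There, 1 member fell (Irf7) and 1 rose (Ddx58), and the median over members was 0.23. Median ratio scaling moved the counts the other way, to 13 members lower and 0 higher, with 3270 genes lower and 2977 higher over all genes. Relative to the median of all genes, the members' median was -0.38 with equal summed FPKM and -0.44 as deposited. The statements on single genes below are for the values as deposited. For members, the value under equal summed FPKM is given where it turned the sign. For single pathway genes it is not given.

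Irf7, the factor that amplifies type I interferon production, measured 0.936, 1.52 and 1.18 FPKM in mutant AT2 cells, against 4.06, 3.53 and 3.72 FPKM in control AT2 cells. No mutant library came near the lowest control. It fell by 1.11 ± 0.13 on the log2 scale (SE, n = 3 per group; limma adjusted p = 0.000466), and kept its call under every alternative in which it was tested. Irf1, the factor that relays interferon gamma to GTPase and class I genes, measured 26.6, 24.3 and 23.5 FPKM in mutant AT2 cells, against 47.7, 59.3 and 40.4 FPKM in control AT2 cells. Mutant libraries were tightly grouped below all controls. The gene fell by 0.94 ± 0.14 (limma adjusted p = 0.00123; log2 change -0.37 and 0.108 with equal summed FPKM). Irf9 had a log2 change of -0.30 with overlapping groups (adjusted p = 0.0994), and of 0.25 with equal summed FPKM.

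B2m measured 145, 209 and 151 FPKM in mutant AT2 cells, against 251, 329.5 and 298 FPKM in control AT2 cells. It was by far the most abundant member, and its highest mutant library stayed below its lowest control. B2m fell by 0.81 ± 0.17 (limma adjusted p = 0.00647; log2 change -0.22 and 0.335 with equal summed FPKM). The other class I members in this table did not pass. Psmb8 measured 15.6, 19.2 and 20.9 FPKM in mutant AT2 cells, against 22.1, 21.9 and 25.4 FPKM in control AT2 cells, a log2 change of -0.31 (adjusted p = 0.0678) that turned to 0.25 with equal summed FPKM. Psmb8 passed, lower, with median ratio scaling (adjusted p = 0.0243), with the replicate block (0.0415), with age as a covariate (0.0374) and without mutant C (0.0493). Tap1 and Psmb9 overlapped, with log2 changes of -0.01 and -0.13, and of 0.52 and 0.39 with equal summed FPKM; the 2 genes overlap by 212 bases on opposite strands of chromosome 17, and without strand information their reads there cannot be told apart.

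Gbp2 and Gbp7 encode guanylate-binding proteins, large GTPases that attack pathogen vacuoles. Gbp2 measured 0.723, 0.457 and 0.615 FPKM in mutant AT2 cells, against 2.18, 1.18 and 2.32 FPKM in control AT2 cells. Gbp7 measured 0.458, 0.638 and 0.366 FPKM in mutant AT2 cells, against 1.72, 1.31 and 1.89 FPKM in control AT2 cells. All mutant libraries were below 1 FPKM and all controls above it. Log2 changes were -0.83 ± 0.19 for Gbp2 and -0.82 ± 0.15 for Gbp7 (limma adjusted p = 0.00834 and 0.00298). Without any 1 control library, or with equal summed FPKM, neither gene passed the filter. Igtp, an immunity-related GTPase, measured 2.05, 2.25 and 2.45 FPKM in mutant AT2 cells, against 3.50, 2.83 and 4.13 FPKM in control AT2 cells, and fell by 0.46 ± 0.14 (limma adjusted p = 0.0250). Its call was lost without mutant A or B or control A or C, with adjusted p of 0.0874, 0.0662, 0.0653 and 0.0626, and where no filter was used (0.0834). With equal summed FPKM its log2 change was -0.0373 (adjusted p = 0.904). Gbp4 was below the filter, at 0.303 to 0.531 FPKM in mutants and 0.365 to 0.972 FPKM in controls.

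Usp18 measured 0.551, 0.809 and 0.791 FPKM in mutant AT2 cells, against 2.35, 1.24 and 1.89 FPKM in control AT2 cells. Mutant libraries lay below all controls, and the gene fell by 0.70 ± 0.18 (limma adjusted p = 0.0129; 0.0524 without mutant A). Without any 1 control library it did not pass the filter. Its substrate gene Isg15, which encodes a ubiquitin-like modifier, measured 1.61 to 2.41 FPKM in mutants and 2.56 to 3.45 FPKM in controls, did not overlap and did not pass (log2 change -0.34, adjusted p = 0.0909; log2 change 0.07 with equal summed FPKM). Bst2, which encodes tetherin, a protein that holds virus particles at the cell surface, measured 14.9, 19.4 and 18.6 FPKM in mutant AT2 cells, against 21.9, 25.0 and 26.2 FPKM in control AT2 cells. It fell by 0.45 ± 0.12 (limma adjusted p = 0.0162; 0.0506 without mutant A), and the sign turned to 0.10 with equal summed FPKM. Ifi35 measured 11.1, 10.9 and 10.3 FPKM in mutant AT2 cells, against 12.7, 14.5 and 13.2 FPKM in control AT2 cells. It fell by 0.29 ± 0.08 (limma adjusted p = 0.0215), a call lost without mutant A, B or C (0.0536, 0.0577 and 0.0781), and the sign turned to 0.25 with equal summed FPKM.

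Ddx58 encodes RIG-I, the sensor of viral RNA ends. It measured 11.0, 9.91 and 10.8 FPKM in mutant AT2 cells, against 9.01, 6.70 and 8.84 FPKM in control AT2 cells, with no overlap. The gene rose by 0.34 ± 0.12 (limma adjusted p = 0.0460), and the call was lost without mutant A, B or C or control B (0.128, 0.0682, 0.120 and 0.0817), and also with no filter (0.0914), median ratio scaling (0.184), limma without trend (0.0528) and age as a covariate (0.0526). Its relative Ifih1, which encodes MDA5, had a log2 change of 0.01. The chemokine gene Cxcl10 measured 1.78, 1.35 and 1.70 FPKM in mutant AT2 cells, against 0.607, 4.18 and 0.412 FPKM in control AT2 cells. Control B alone set its overlap (log2 change 0.20, limma adjusted p = 0.737). All 3 mutants but only 1 control reached 1 FPKM, so Cxcl10 passed the filter through its mutants. Without control B its log2 change was 0.79 (limma adjusted p = 0.00634), and nothing is read from that p. Xaf1 and Oasl2 also overlapped and did not pass, with log2 changes of -0.35 (0.0873 with equal summed FPKM) and 0.16. Members with every mutant AT2 library below every control numbered 11 of 19, where the share over all genes tested was 26.3%, and 1 had every mutant above, where it was 38.2%. Usp18, Gbp2 and Gbp7 are among the 11 and entered the test through their controls, so nothing is read from that count.

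Below the AT2 filter were Oasl1, Oas1a, Oas2, Rsad2, Mx1, Mx2, Ifi44, Dhx58, Gbp4 and Zbp1. Oasl1 was above every control in each mutant library, at 0.601, 0.383 and 0.767 FPKM in mutants, against 0.172, 0.154 and 0.304 FPKM in controls. Oas1a did the same, with 0.539 to 0.640 FPKM in mutants and 0.205 to 0.350 FPKM in controls. Both rose where no filter was used, and Mx1, which encodes an antiviral dynamin-like GTPase, fell there, at 0.0290 to 0.0444 FPKM in mutants and 0.121 to 0.205 FPKM in controls.

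The change in AT2 cells minus the change in AT1 cells was tested as an interaction term for the 22 members named in both tables and at 1 FPKM or more in at least 3 of 12 libraries. None passed in limma, with or without a trend, against 8.29% of the 10336 genes tested (4.28% lower and 4.02% higher), and 2 members had an unadjusted p under 0.05. These were Irf7, with a difference of -0.81 ± 0.27 on the log2 scale (limma adjusted p = 0.0854), and B2m, with -0.73 ± 0.25 (adjusted p = 0.0873). Irf7 passed without AT1 control B (difference -1.02, adjusted p = 0.0194) and with letters as a replicate block (0.0381). The falls of Irf7, Irf1, B2m and the GTPases in AT2 cells were therefore not shown to differ from their changes in AT1 cells. Ifit2, Ifit3 and Irgm1 were not analysed in AT2 cells, so no such comparison could be made for them.

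Whole lung showed far larger differences, in 1 mutant and 1 control library at P14, with no replicate check. Of the 34 members that reached 1 FPKM in either library, 27 were past 2-fold lower in the mutant on the FPKM + 1 scale, 1 was past 2-fold higher and 6 were within 2-fold. Over all 13717 genes at that level, 11.4% were past 2-fold lower and 11.9% higher. The median log2 ratio was -1.84 over the 34 members and 0.04 over all genes, with 31 of the 34 and 48.2% of all genes below 0. Cxcl10, a chemokine gene, and Oas2 were below 1 FPKM in both libraries. Gbp4, Ifit1, Ifit3, Rsad2, Ifi44 and Mx2 reached 1 FPKM in control lung alone, and Oasl1 and Mx1 in mutant lung alone. These genes entered the counts and the median through the library where they were higher.

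**Figure D3:**
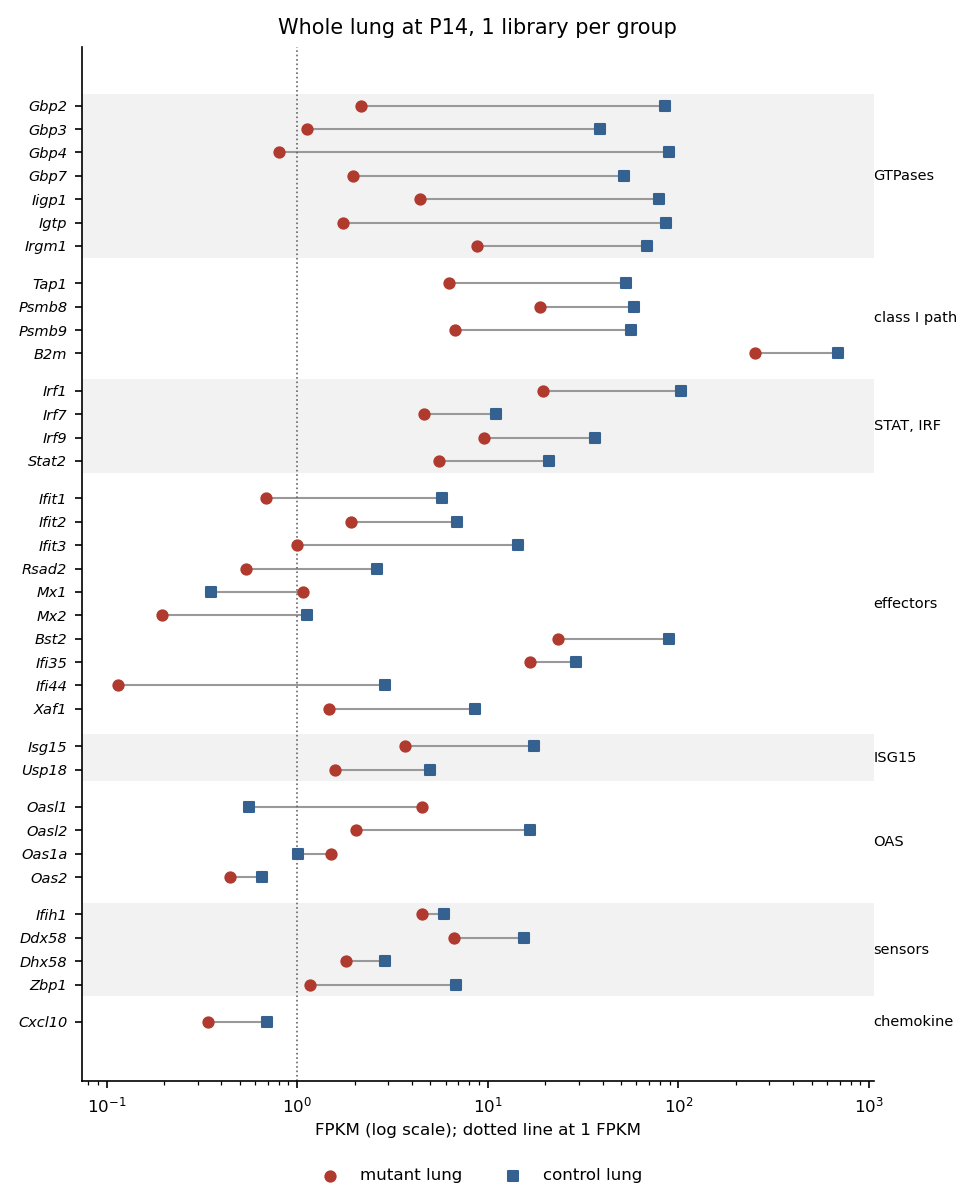
FPKM of each gene in mutant lung (circles) and control lung (squares) at P14, on a log axis, grouped by role, with 1 library per group and no error. All 7 GTPases sit between 39.0 and 89.3 FPKM in control lung and at 8.77 FPKM or less in mutant lung, and Oasl1, Mx1 and Oas1a lie to the right in the mutant.

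The interferon-inducible GTPases held the lowest ratios among the members, apart from Irgm1. Gbp4 was at 0.802 FPKM in mutant lung, against 89.3 FPKM in control lung, Igtp at 1.73 against 86.3 FPKM, and Gbp2 at 2.17 against 85.0 FPKM. Gbp3 was at 1.12 FPKM in mutant lung, against 39.0 FPKM in control lung, Gbp7 at 1.95 against 51.9 FPKM, and Iigp1 at 4.41 against 79.4 FPKM. Irgm1 was at 8.77 FPKM in mutant lung, against 68.2 FPKM in control lung. Summed, the 7 GTPases gave 20.9 FPKM in mutant lung and 499 FPKM in control lung. Counted from the lowest ratio among 13717 genes, Gbp4 stood at place 11, Igtp 14, Gbp2 17, Gbp3 21, Gbp7 23 and Iigp1 29; Irgm1 stood at place 65, after Ifit3 at 53, Tap1 at 58 and Psmb9 at 60. The 10 loci below Gbp4 were microRNA or small nucleolar RNA loci. Of the 1639 genes at 50 FPKM or more in control lung, 23 (1.40%) were lower by 10-fold or more in mutant lung; Gbp4, Igtp, Gbp2, Gbp7 and Iigp1 were among them, with the related GTPase gene Irgm2 and the locus named for Ifi47 and Olfr56.

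Class I genes followed. Tap1 was at 6.23 FPKM in mutant lung, against 53.3 FPKM in control lung, Psmb9 at 6.76 against 56.1 FPKM, and Psmb8 at 18.9 against 58.4 FPKM. B2m was at 253 FPKM in mutant lung, against 683 FPKM in control lung. Among the transcription factors, Irf1 was at 19.4 FPKM in mutant lung, against 104 FPKM in control lung, and Irf9, Stat2 and Irf7 were 3.82, 3.74 and 2.40 times higher in control lung. All 8 genes of these groups were past 2-fold lower in the mutant.

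Antiviral effectors differed less evenly. Ifit3 was at 0.997 FPKM in mutant lung, against 14.4 FPKM in control lung, Ifit1 at 0.687 against 5.73 FPKM, and Ifit2 at 1.91 against 6.89 FPKM. Isg15 was at 3.67 FPKM in mutant lung, against 17.5 FPKM in control lung, Bst2 at 23.5 against 88.7 FPKM, and Oasl2 at 2.03 against 16.6 FPKM. Within 2-fold were Ifih1, at 4.50 FPKM in mutant lung and 5.85 FPKM in control lung, and Dhx58, Ifi35, Mx1, Mx2 and Oas1a. The low effector genes Rsad2, Ifi44 and Xaf1 were at 0.538, 0.115 and 1.47 FPKM in mutant lung, against 2.62, 2.89 and 8.57 FPKM in control lung, and the nucleic acid sensor gene Zbp1 at 1.17 against 6.78 FPKM. Ddx58 was at 6.68 FPKM in mutant lung, against 15.5 FPKM in control lung, and Usp18 at 1.57 against 4.97 FPKM. Oasl1 alone was past 2-fold higher, at 4.50 FPKM in mutant lung, against 0.562 FPKM in control lung.

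**Figure D4:**
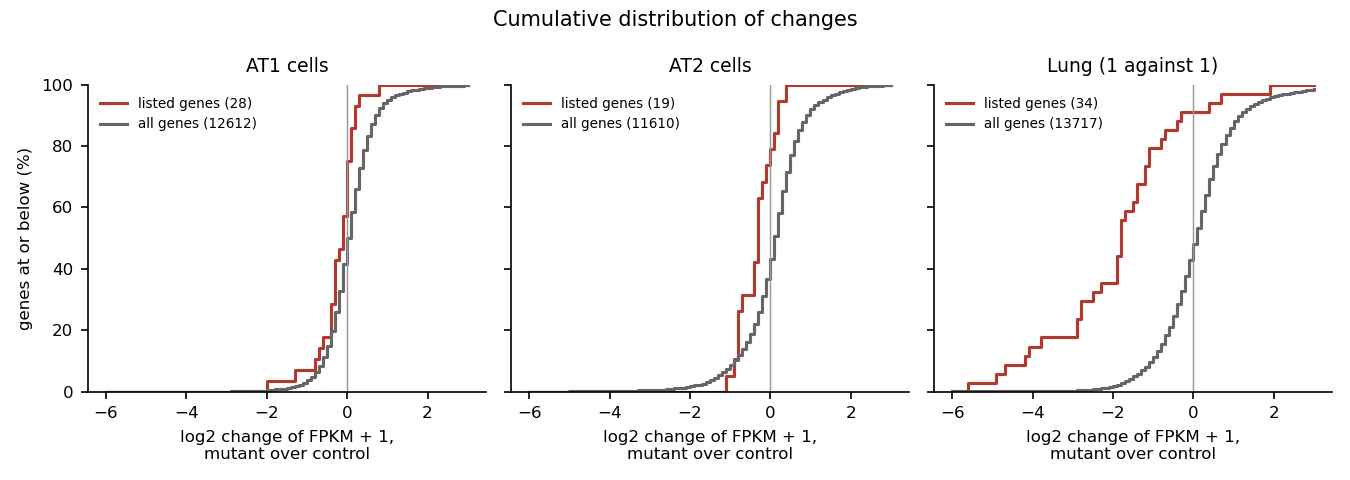
Cumulative percentage of genes at or below each log2 change (mutant over control, FPKM + 1 scale), for the listed genes and for all genes, in AT1 cells, AT2 cells and lung. The lung curve of the listed genes is shifted left, with a median of -1.84 against 0.04, whereas the AT1 medians are -0.15 and 0.0007.

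GTPase levels were low in AT1 and AT2 libraries beside those of control lung. In AT1 cells the 7 summed to 22.7 to 29.8 FPKM in mutants and 15.5 to 29.9 FPKM in controls, where the 7 in lung summed to 20.9 FPKM in the mutant and 499 FPKM in the control. The 4 with values in AT2 cells (Gbp2, Gbp4, Gbp7 and Igtp) summed there to 3.74 to 3.87 FPKM in mutants and 5.68 to 9.31 FPKM in controls, and in lung to 6.65 FPKM in the mutant and 312 FPKM in the control. These levels come from different ages, and from tables normalized separately in the case of AT2 cells, and are set side by side as a description.

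Cell type marker genes also differed between the lung libraries, and not all lists went the same way. In lung, 12 endothelial genes summed to 894 FPKM in the mutant and 2375 FPKM in the control, with 9 of 12 past 2-fold lower. Over all genes in lung, 11.4% were past 2-fold lower and 11.9% higher. Of 13 leukocyte genes that reached 1 FPKM, 5 were past 2-fold higher (such as the macrophage genes Marco, at 31.0 FPKM in mutant and 5.51 in control lung, and Cd68, at 44.5 and 10.1), and 3 were past 2-fold lower. Those 3 were lymphocyte genes: Cd79a at 1.58 FPKM in mutant and 16.4 in control lung, Cd3e at 0.348 and 2.19, and Nkg7 at 0.197 and 1.72. The 14 leukocyte genes in this table summed to 392 FPKM in mutant lung and 275 FPKM in control lung. AT1 genes summed to 880 FPKM in mutant and 3534 FPKM in control lung. AT2 genes summed to 7472 FPKM in mutant and 24187 FPKM in control lung, with 8 of 10 past 2-fold lower. Airway genes summed to 20893 FPKM in mutant and 21724 FPKM in control lung, with 3 of 4 within 2-fold. Mesenchymal genes summed to 3721 and 4725 FPKM, with 6 of 9 within 2-fold, and erythroid genes to 86.0 and 351 FPKM. The part of these differences in the lung result was not tested.

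The lung libraries also differed in sex-linked genes. The X-linked transcript Xist was at 0.0848 FPKM in mutant lung and 52.6 FPKM in control lung, and the Y-linked gene Ddx3y at 22.8 FPKM in mutant lung and 0.0845 FPKM in control lung. Sex and genotype therefore cannot be told apart in the lung comparison. In AT1 cells Ddx3y was above 1 FPKM in mutant B alone, and in AT2 cells in mutant C and in controls A and C.

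In AT1 and AT2 cells such lists moved too. In mutant AT1 cells 3 of 12 endothelial genes fell, with sums of 262 to 320.2 FPKM in mutants and 448 to 862 FPKM in controls. There 2 of 11 leukocyte genes tested fell, with sums of 125 to 232 FPKM in mutants and 215 to 608 FPKM in controls. Over all genes tested in AT1 cells, 6.22% fell. In AT2 cells, where 22.3% of all genes tested fell and 32.4% rose, all 12 endothelial genes fell. Their sums were 63.0 to 96.5 FPKM in mutants and 213 to 282 FPKM in controls. There 8 of 9 leukocyte genes tested fell, with sums of 16.2 to 38.6 FPKM in mutants and 59.6 to 181 FPKM in controls. Of 5 mesenchymal genes tested in AT2 cells 4 fell and 1 rose. Immediate early and heat shock genes summed to 931 to 1220 FPKM in mutant and 1755 to 5963 FPKM in control AT2 cells, where 2 of 6 fell. In lung they summed to 703 FPKM in the mutant and 359 FPKM in the control. There 5 of 8 were past 2-fold higher, against 11.9% of all genes. The part of these lists in the falls of Irf1, Irf7, B2m and the GTPases was not tested.

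Further genes of the pathway were taken from 5 lists, 97 genes in all. The interferon genes themselves were nearly silent: of 9 listed, 8 were at 0 in all AT1 libraries and 7 in all AT2 libraries, and Ifng, which encodes interferon gamma, was at 0 in mutant lung and 0.11 FPKM in control lung. In AT1 cells 68 pathway genes were tested, 3 fell and 4 rose, where 6.22% of all genes fell and 11.6% rose. With letters as a replicate block 8 fell, where 10.8% of all genes did, and the 4 that rose became 0 with equal summed FPKM and 1 with median ratio scaling. Samhd1, which encodes a nucleotide-degrading restriction factor, averaged 23.6 ± 7.03 FPKM in mutant and 80.2 ± 7.63 FPKM in control AT1 cells and fell by 1.76 ± 0.23 on the log2 scale (SE, n = 3 per group; limma adjusted p = 0.00486). Tor3a and Helz2 fell by 1.04 and 0.63 (adjusted p = 0.0399 and 0.0279). Ikbke, which encodes a kinase that activates interferon regulatory factors, rose by 1.03 ± 0.21 (adjusted p = 0.0181), and the proteasome genes Psme2, Psmb6 and Psmb7 rose by 0.51, 0.61 and 0.51 (adjusted p = 0.0420, 0.0499 and 0.0374).

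In AT2 cells 60 pathway genes were tested, 16 fell and 11 rose, where 22.3% of all genes fell and 32.4% rose. With equal summed FPKM 2 fell and 27 rose, where 7.98% of all genes fell and 55.2% rose. As deposited, 4 of 15 receptor, kinase, STAT and feedback genes fell and 2 rose. Of 6 genes of nucleic acid sensing 2 fell and 2 rose. Of 26 further interferon-stimulated genes 8 fell and 2 rose, and of 13 other class I genes 2 fell and 5 rose. Not every gene past the test in AT2 cells is named. Changes of single pathway genes are as deposited, and whether each kept its sign with equal summed FPKM is not given. Ikbke rose there too, by 1.31 ± 0.23 (limma adjusted p = 0.00263), as did Ifitm3, which encodes a membrane protein that blocks viral entry, by 1.26 ± 0.17 (adjusted p = 0.000689). Mb21d1, which encodes the DNA sensor cGAS, rose by 0.80 ± 0.13 (adjusted p = 0.00188). Its controls were at 0.652 to 0.887 FPKM, so it passed the filter through its mutants. Irf8, a factor of myeloid and lymphoid cells, Ifi27l2a and Samhd1 fell by 1.05 ± 0.18, 1.01 ± 0.21 and 0.94 ± 0.15 (adjusted p = 0.00246, 0.00515 and 0.00194). Mutants were at 0.356 to 0.724 FPKM for Irf8 and 0.351 to 1.15 FPKM for Ifi27l2a, so these genes passed the filter through their controls. Subunits of the constitutive proteasome, Psmb5, Psmb6 and Psmb7, rose by 0.49, 0.44 and 0.43 (adjusted p = 0.0137, 0.0250 and 0.0353). The proteasome activator gene Psme1 fell by 0.48 (adjusted p = 0.0134). The class I heavy chain gene H2-K1, named after its value was seen, fell by 0.39 ± 0.13 (limma adjusted p = 0.0359). Its partner B2m fell too, but lost its call with equal summed FPKM (log2 change -0.22). Erap1 and Canx, also of the class I list, rose by 0.40 and 0.35 (limma adjusted p = 0.01145 and 0.02409).

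The pathway genes named next for lung were chosen after their values were seen. Nlrc5, the transactivator of class I genes, was at 0.0925 FPKM in mutant lung, against 9.91 FPKM in control lung, Gbp6 at 0.227 against 31.4 FPKM, and Socs1, a feedback inhibitor, at 2.11 against 11.9 FPKM. Socs3, a feedback inhibitor induced mainly through STAT3, stood the other way, at 118 FPKM in mutant lung and 11.0 FPKM in control lung. Of the 30 further interferon-stimulated genes at 1 FPKM or more in lung, 17 were past 2-fold lower and 1 past 2-fold higher, where 11.4% and 11.9% of all genes were. Some of those lower, such as Gbp5, Gbp6 and Tgtp1, reached 1 FPKM in control lung alone and so entered the count through it. Of 17 receptor, kinase, STAT and feedback genes 2 were lower, 2 higher and 13 within 2-fold. Of 17 other class I genes 5 were lower and 12 within 2-fold, and of 10 genes of nucleic acid sensing 1 was higher and 9 within 2-fold.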

How the data were processed

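RNA-seq values were used as deposited. Per the submitters' processing notes, the build was mm10 and the tools included Cufflinks 2.2.1, Cuffdiff, Cuffnorm, Bowtie2 2.2.3 and TopHat2 2.0.14; which annotation served, and whether strand was used, is not given in the sources used here. The authors' deposited unit is FPKM per library; depth in reads is unknown, so no counting interval is given. The authors' deposited log2 fold changes were not used, since in the AT1 block they did not match the rows beside them (correlation 0.0046 over 23793 loci). Values were tested as log2(FPKM + 1) in limma 3.58.1 with a mean-dependent prior, in R 4.3.3, for genes at 1 FPKM in 3 libraries; the steps were tested on simulated data. AT1 and AT2 tables, normalized separately, were fitted apart, and together only for the difference of their within-table changes. Same-lettered AT1 libraries had deviations correlated at 0.237, 0.357 and 0.477 over 12612 genes, so letters may pair them (the source is the data, not the labels). The main AT1 test left such a pairing out, and the replicate block was run as an alternative. AT2 letters did not pair libraries in this way. Per-library values are given for members past a test and for B2m, and others by range, with some members below the test named for their role. Of each pathway list up to 4 genes past the test were to be named, but in AT2 cells fewer were named for some lists. H2-K1, Erap1, Canx and the pathway genes in lung were named after their values were seen. Alternatives covered the pseudocount, the filter, the scaling, the trend, the block, age and leaving out libraries. Members, lists and tests were chosen with earlier results of these data known. A gene that the rule for pathway lists would name is not reported here. Promoters are RefSeq's and gene positions GENCODE's (GRCm38). Spreadsheet conversion had turned 26 and 23 gene names into dates.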

Additional observations from a re-analysis of the deposited data

Results flagged for a closer look

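Irgm1 was singled out because its differences ran opposite ways in AT1 cells and whole lung. Ddx58 also ran opposite ways, higher in AT2 cells (log2 change 0.34) and lower in lung (log2 ratio -1.10). In AT1 cells every mutant library was above every control for Irgm1, at 9.24 to 11.8 FPKM in mutants and 5.10 to 6.66 FPKM in controls. That call was lost in some of the alternatives, as given above. In whole lung Irgm1 was at 8.77 FPKM in the mutant and 68.2 FPKM in the control, a log2 ratio of -2.83. The difference between the tissues was not tested, since lung had 1 library per group. Ages differed as well (P5 and P14), and the mutant and control lung libraries differed in sex-linked genes.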

How the results depend on the processing

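Depth in reads is unknown, and genes near 1 FPKM enter or leave the test with the filter. Paired letters are a hint from the data in AT1 cells and not from the labels. In AT2 cells, where letters did not pair (correlations 0.112, -0.117 and 0.127), a replicate block gave 10 members lower and 1 higher; in the difference it gave 1 lower, and in AT1 cells 4 members and 8 pathway genes lower. It changed no other count of members or pathway genes by over 1.5 times.

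AT1 counts, against 2 members lower and 1 higher and 3 pathway genes lower and 4 higher, moved as follows. No filter gave 1 pathway gene lower. A mean of 5 FPKM gave 5 lower and 2 higher. Equal summed FPKM gave 0 members and 0 pathway genes higher, or 0 and 1 without mitochondrial and small RNA loci; there Gbp2 (-0.0781 and -0.0448), Iigp1 (-0.0789 and -0.0445) and Tap1 (-0.0594 and -0.0169) turned sign. Median ratio scaling gave 1 pathway gene higher, and limma without trend 2. Leaving out 1 library gave 2 to 3 members lower, 0 to 1 higher, 1 to 9 pathway genes lower, 0 to 3 higher, and a median of members of -0.35 to -0.0824.

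AT2 counts, against 9 members lower and 1 higher and 16 pathway genes lower and 11 higher, with a median of members of -0.34, moved more. A pseudocount of 0.1 FPKM gave a median of -0.45. No filter gave 2 members higher (Oasl1 and Oas1a, with the call of Ddx58 lost) and a median of -0.17. A mean of 5 FPKM gave 4 members lower. Equal summed FPKM gave 1 member lower, a median of 0.23, and 2 pathway genes lower and 27 higher; without mitochondrial and small RNA loci it gave 1, 0.22, 2 and 27. In those 2 settings 8 of the 19 members turned sign: Tap1 (0.52 and 0.51), Psmb9 (0.39 and 0.38), Isg15 (0.07 and 0.0594), Irf9 (0.25 and 0.23), Bst2 (0.10 and 0.0909), Ifi35 (0.25 and 0.23), Psmb8 (0.25 and 0.24) and Xaf1 (0.0873 and 0.0765). Median ratio scaling gave 13 members lower (adding Isg15, Irf9, Psmb8 and Xaf1), 0 higher, 6 pathway genes higher and a median of -0.43, and Ifih1 turned to -0.10. Limma without trend and age as a covariate each gave 0 members higher. Leaving out 1 library gave 5 to 9 members lower (5 without mutant A, control A or control C), 0 to 1 higher, 6 to 13 pathway genes lower, 4 to 10 higher, and a median of -0.42 to -0.27. The causes were not tested.

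In the difference, leaving out 1 library gave 0 to 1 member lower. In lung, a floor of 5 FPKM gave 0 members higher and a 1.5-fold limit 2. Leaving out 1 library turned the sign of 11 of 28 members in AT1 cells and 4 of 19 in AT2 cells, none of which passed the test with all libraries. In AT1 cells the changes ranged from -0.17 to 0.0343 (B2m), -0.35 to 0.20 (Bst2), -0.0184 to 0.32 (Ddx58), -0.26 to 0.29 (Gbp2), -0.25 to 0.0545 (Gbp4), -0.14 to 0.0457 (Ifih1), -0.31 to 0.31 (Iigp1), -0.0893 to 0.0547 (Irf9), -0.46 to 0.055 (Isg15), -0.18 to 0.49 (Psmb8) and -0.0982 to 0.22 (Tap1). In AT2 cells they ranged from -0.15 to 0.79 (Cxcl10), -0.11 to 0.40 (Oasl2), -0.0563 to 0.0623 (Ifih1) and -0.0678 to 0.0765 (Tap1). Relative to all genes, the members' median stayed below 0 in every setting, from -0.36 to -0.08 in AT1 cells and from -0.55 to -0.15 in AT2 cells. In AT2 cells Usp18, Gbp2, Gbp7 and Irf7 had passed the main filter through their controls. The AT2 value was -0.15 with no filter and -0.42 with a mean of 5 FPKM. These medians were not tested.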
